A study of Mus musculus with 8 samples.

Results

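Of the 55536 genes counted in mouse MIN6 cells, 9 are described here: Slurp1, Ly6d, Ly6e, Ly6a, Lypd2, Lypd3, Psca, Lynx1 and Ly6g6c, all of the Ly6/uPAR family. They were chosen by symbol with the counts in view, because Slurp1 had one of the largest differences between cells given a Klf4 plasmid and control cells. The Klf4-against-control values of these 9 genes are therefore a description and carry no test. MIN6 is an insulin-producing β-cell line from a mouse pancreatic tumour, labelled wild type in all samples. Control cells were transfected with pcDNA 3, an empty vector, and Klf4 cells with pGloMyc-Klf4, from which the transcription factor Klf4 is expressed. Each group had 4 biological replicates, all taken through a 48 h transfection with Lipofectamine 3000, a lipid carrier for plasmid DNA. Replicates 1 and 2 of both groups were labelled batch 1, and replicates 3 and 4 batch 2. By name the plasmids differ in backbone as well as in Klf4, so the effects of the 2 cannot be told apart. The extraction text speaks of islets, whereas every sample is named as MIN6.

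Ly6/uPAR proteins are small and share a fold of disulfide-linked loops, known for finger-like loops. Most are held on the outer cell membrane by a glycosylphosphatidylinositol (GPI) anchor, and a few, such as Slurp1, are secreted. Members bind nicotinic acetylcholine receptors, proteases or lipoproteins, or mark stages of blood and epithelial cells, and several are abundant in stratified epithelium. Klf4 is a zinc-finger factor that binds CACCC-like DNA and is known for its part in the differentiation of skin epithelium.

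The 8 libraries held 45417853 to 52731176 counts, and reads from the Klf4 gene showed the labelled difference, with 1743 to 2060 counts in the control libraries and 205171 to 308667 in the Klf4 libraries. The markers of β cells all passed the filter on low counts, and their summed level was 25330 to 32110 CPM in control and 23660 to 32360 CPM in Klf4 libraries, where CPM is the count relative to the library total, scaled by the trimmed mean of M-values (TMM). Of these 10 markers none rose and 5 fell by edgeR's quasi-likelihood test (Pdx1, Mafa, Slc30a8, G6pc2 and Iapp), with log2 differences of -0.22 to -0.07. Over the whole table, 18266 genes passed that filter and 6684 differed between the groups at an adjusted p under 0.05 (36.6%). Of these, 3856 were higher (21.1%) and 2828 lower (15.5%) in Klf4 libraries, by edgeR's quasi-likelihood test with a batch term and Benjamini-Hochberg adjustment. The genes called lower numbered 1159 without the batch term and 1638 with scaling factors from genes of average log2 CPM 6 or more. Whether the 5 small falls of β-cell markers kept their calls in those settings was not followed.

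Of the 9 genes, 6 passed the filter. Of the 6, 5 were past that threshold as higher and Ly6e as lower, from which nothing is read, since the same contrast chose the genes. The filter needs about 10 counts in at least 4 libraries, and only Ly6e had a mean of 10 or more counts in the control libraries. Slurp1, Lypd2, Lypd3, Lynx1 and Ly6g6c passed it through the Klf4 libraries, and Psca, Ly6d and Ly6a did not pass. In 6 of the 9 genes, among them Psca, which was not tested, all 4 Klf4 libraries lay above all 4 control libraries. They did so in 17.2% of the 18266 genes tested and in 3895 of the 55536 genes counted. Without Ly6e, the other genes summed to 0.0609 to 0.552 CPM in control libraries and to 71.3 to 83.2 CPM in Klf4 libraries.

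**Figure D1:**
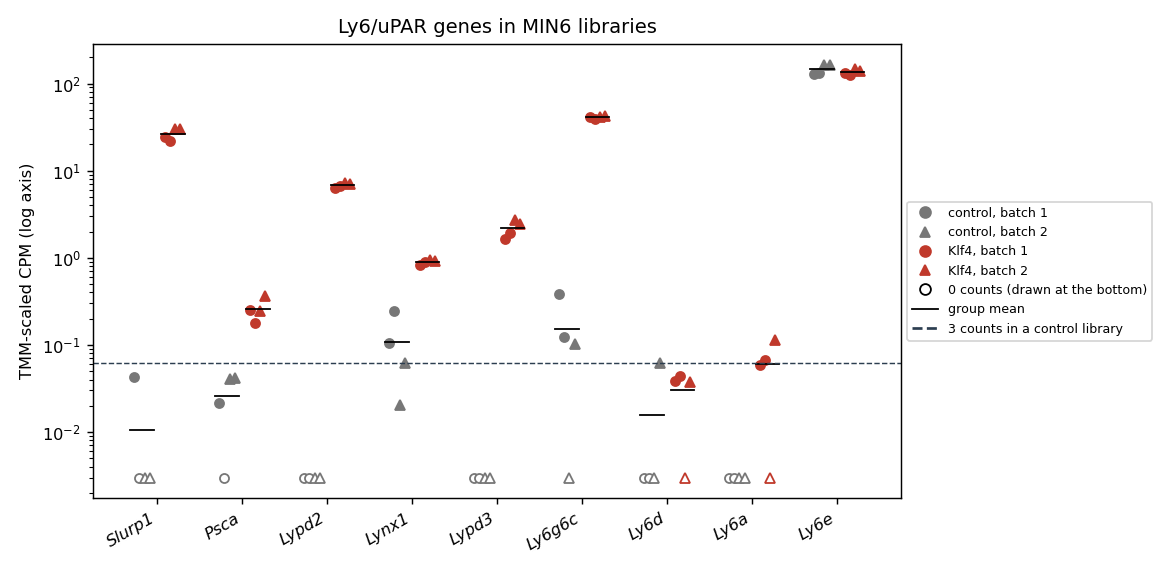
Level of each of the 9 genes in each library, as TMM-scaled CPM on a log axis; grey symbols are control and red symbols Klf4 libraries, circles batch 1 and triangles batch 2, short lines group means, open symbols libraries with 0 counts, and the dashed line 3 counts in a control library. Slurp1, Psca, Lypd2, Lynx1, Lypd3 and Ly6g6c have no overlap between the groups, Ly6d and Ly6a lie near the dashed line, and Ly6e overlaps at over 120 CPM.

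Slurp1 encodes a secreted protein of keratinocytes that modulates nicotinic acetylcholine receptors, and its loss in people causes the skin disease mal de Meleda. The gene (ENSMUSG00000022596) lies on the minus strand at chr15:74724318-74728034 in GRCm38. The 4 control libraries held 2, 0, 0 and 0 Slurp1 counts, and the Klf4 libraries 1263, 995, 1578 and 1587. In CPM, Klf4 libraries 1 to 4 had 24.4, 22.0, 30.01 and 30.1, with a mean of 26.6 ± 4.08 (SD, n = 4). Slurp1 thus went from at most 2 counts to 995 or more in every Klf4 library, and the groups did not overlap. The ratio of pooled counts, scaled for library size, was 2592, with a 95% interval of 717 to 21400 for counting error only. It rests on 2 counts of control replicate 1, and the fitted log2 difference of 11.02 became 13.42 without that library. Of 32160 genes with at most 3 counts in every control library, Slurp1 had one of the highest means in the Klf4 libraries (rank 3 by CPM, not scaled by length). In bulk RNA, a high level in a few cells and a low level in many cannot be told apart. Last, 322 bases of Slurp1 exons overlap exons of Them6 on the opposite strand, and the strand setting of the counting was not given in the sources used here. Them6 itself had 25.5 ± 1.63 CPM in control and 25.5 ± 1.21 CPM in Klf4 libraries, and its log2 difference did not pass the test (edgeR adjusted p = 0.997).

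Lypd2 is the next gene of the family along the chromosome, with its start 6.30 kb from that of Slurp1 (ENSMUSG00000022595, chr15:74732247-74734329, minus strand), and encodes a GPI-anchored protein. No control library held a Lypd2 count, and the Klf4 libraries held 323, 299, 384 and 373. The mean Klf4 level was 6.81 ± 0.471 CPM (n = 4), at least 109.7-fold higher than 3 counts in each control library would give. The spread among the 4 Klf4 libraries was narrow, from 6.25 to 7.30 CPM. Scaled by the summed exon length of each gene, Lypd2 and Slurp1 lay close together in Klf4 libraries, at 10.03 ± 0.694 and 9.08 ± 1.39 RPKM, which is CPM per kilobase of exon. The Slurp1 value depends on the transcript used, since its 2 annotated transcripts measure 567 and 2859 bases and give 47.0 or 9.31 RPKM.

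Lypd3, also called C4.4A, is a GPI-anchored relative of the urokinase receptor that is known from the upper layers of stratified epithelium. It lies away from the Slurp1 cluster (ENSMUSG00000057454, chr7:24636550-24641118, plus strand). All 4 control libraries were at 0 counts, and the Klf4 libraries had 85, 88, 142 and 127. Its Klf4 mean was 2.17 ± 0.471 CPM (n = 4), at least 35.0-fold above the level of 3 counts in each control library. Klf4 libraries of batch 2, at 2.70 and 2.41 CPM, lay above those of batch 1, at 1.65 and 1.94. Per length, its Klf4 level of 1.32 ± 0.285 RPKM was below those of Slurp1 and Lypd2. Gm26550, which overlaps 225 exonic bases of Lypd3 on the opposite strand, had 0 counts in all 8 libraries.

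Ly6g6c encodes a GPI-anchored protein of the major histocompatibility complex class III region (ENSMUSG00000092586, chr17:35065388-35070050, plus strand). Control libraries 1 to 4 held 18, 6, 0 and 5 counts, and Klf4 libraries 2139, 1792, 2167 and 2228. In CPM the control libraries had 0.382, 0.123, 0 and 0.104, and the Klf4 libraries 41.4, 39.6, 41.2 and 42.2. The Klf4 libraries were thus near one another, with a mean of 41.1 ± 1.11 CPM, and the control libraries were spread over a mean of 0.152 ± 0.163 CPM. The ratio of pooled counts was 274, with a counting interval of 190.9 to 410.0, and the fitted log2 difference was 8.07 (SE 0.16). Control replicate 1 held 18 of the control counts, and without it the difference was 9.03. At 30.1 ± 0.813 RPKM in Klf4 libraries, Ly6g6c was the highest per length of the 5 genes that passed the filter through the Klf4 libraries, on summed exon length and on the longest transcript. On the shortest transcript it was also above Slurp1, at 68.7 against 47.0 RPKM. Mpig6b, on the opposite strand, overlaps 22 exonic bases and held 1, 0, 0 and 0 counts across the control and 18, 12, 15 and 16 across the Klf4 libraries.

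Promoter sequences from RefSeq for GRCm38.p6 matched Lypd3 and Ly6g6c, 2 of the 9 genes, and they are shown because both genes were near absent in control libraries and present in all Klf4 libraries. Lypd5, which is described below and is the other family gene with the largest fitted difference, is shown beside them. Each is the sequence before the start, 5′ to 3′ on the strand of the gene, with the letters CACCC, or GGGTG where the match is on the other strand, in capitals. Lypd3 covers chr7:24636320-24636549, Ly6g6c covers chr17:35067075-35067324 within an intron of its longer annotated transcript, and Lypd5 covers chr7:24348946-24349195, all on the plus strand.
Lypd3: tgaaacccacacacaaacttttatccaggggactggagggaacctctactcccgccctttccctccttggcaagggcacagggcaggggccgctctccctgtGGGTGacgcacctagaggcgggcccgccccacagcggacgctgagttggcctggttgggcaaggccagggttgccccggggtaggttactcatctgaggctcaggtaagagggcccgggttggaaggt
Ly6g6c: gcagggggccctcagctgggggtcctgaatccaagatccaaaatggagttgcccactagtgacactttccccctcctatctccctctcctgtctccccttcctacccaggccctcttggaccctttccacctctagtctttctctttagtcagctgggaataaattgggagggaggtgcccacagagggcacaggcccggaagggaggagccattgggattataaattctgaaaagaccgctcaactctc
Lypd5: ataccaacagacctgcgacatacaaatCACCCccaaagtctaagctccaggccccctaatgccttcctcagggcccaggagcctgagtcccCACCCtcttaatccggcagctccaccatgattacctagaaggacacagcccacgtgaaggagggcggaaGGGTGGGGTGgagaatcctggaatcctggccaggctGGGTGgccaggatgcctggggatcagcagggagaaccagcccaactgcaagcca
The Lypd3 stretch held 1 match, the Ly6g6c stretch none and the Lypd5 stretch 5. Of the 9 genes past the threshold in the rest of the family, 6 had RefSeq promoter sequences, and Lypd5 held the most matches. Stretches of the others, not printed, held 0 to 4, with 0 in Plaur and in Lypd6. Lypd3 is printed up to the GENCODE start of the gene, 230 bases of a RefSeq window of 250 that held 2 matches in all. Of 32851 RefSeq windows of 250 bases before a start, 52% held CACCC on at least 1 strand, so a match is a description of these letters and does not mark a binding site. The longer CACACCC, which contains CACCC and was searched on both strands, was in 6.93% of the windows, 1 time in the full Lypd3 window and in none of the 3 stretches shown.

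Lynx1 and Psca, both of the Slurp1 cluster, were higher in Klf4 libraries from a low level. Lynx1 is a GPI-anchored protein of the brain that dampens nicotinic receptor responses (ENSMUSG00000022594, chr15:74747852-74753046, minus strand). It had 5, 12, 1 and 3 counts in control libraries 1 to 4, and 43, 40, 49 and 48 in the Klf4 libraries. Mean Lynx1 levels were 0.109 ± 0.0983 CPM for control and 0.889 ± 0.0430 CPM for Klf4 libraries (n = 4 each), and the groups did not overlap. The pooled ratio was 8.19, with a counting interval of 5.2 to 13.6, and the fitted log2 difference 3.03 (SE 0.40), or 3.76 without control replicate 2. Psca, the prostate stem cell antigen, is a GPI-anchored protein of several epithelia (ENSMUSG00000022598, chr15:74714839-74717069, plus strand). Psca counts were 1, 0, 2 and 2 in control and 13, 8, 13 and 19 in Klf4 libraries. The pooled ratio of 10.1 (counting interval 4.08 to 32.5) rests on 5 control counts in all, and the gene was too low for the fit. In Klf4 libraries their levels per length, 0.191 ± 0.00922 RPKM for Lynx1 and 0.301 ± 0.0881 RPKM for Psca, were far below those of Slurp1 and Lypd2.

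Ly6d and Ly6a were at the limit of detection in both groups, and no fold is given for them. Ly6d encodes a GPI-anchored antigen of keratinocytes and of early B-lineage cells (ENSMUSG00000034634, chr15:74762056-74763620, minus strand). Control libraries held 0, 0, 0 and 3 Ly6d counts and Klf4 libraries 2, 2, 0 and 2, so the groups overlapped. Ly6a, or Sca-1, is an interferon-inducible GPI-anchored marker of mouse blood stem cells (ENSMUSG00000075602, chr15:74994877-74998031, minus strand). It had 0 counts in the 4 control libraries and 3, 3, 0 and 6 in the Klf4 libraries. Ly6a has close paralogues nearby, among which reads can be shared, so its few counts are uncertain. At these depths, 3 counts in a control library correspond to 0.0621 CPM, which was chosen as the floor, and a level below that rests on fewer counts still.

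Ly6e, a broadly expressed, interferon-inducible GPI-anchored protein known to restrict the entry of some viruses, was the one gene of the 9 with a substantial level in control cells (ENSMUSG00000022587, chr15:74955051-74959905, plus strand). Control libraries 1 to 4 had 128.5, 130.7, 163 and 165 CPM, and Klf4 libraries 132, 126, 148 and 141 CPM. The groups overlapped, and the means were 147 ± 19.7 CPM in control and 137 ± 9.63 CPM in Klf4 libraries (n = 4 each). The fitted log2 difference was -0.10 (SE 0.03). Within batch 1 it was -0.01 and within batch 2 it was -0.18. Per length, Ly6e had 38.7 ± 5.19 RPKM in control and 36.1 ± 2.54 RPKM in Klf4 libraries, on summed exon length.

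Batch was a contrast that the choice of genes had not used. In control cells it separated the Ly6e libraries more than the plasmid did within either batch (-0.01 and -0.18 on the log2 scale). In Klf4 cells, at 0.16, the batch difference was not larger than the plasmid difference within batch 2. In the control cells, Ly6e was higher in batch 2 than in batch 1 by 0.34 on the log2 scale (SE 0.04, adjusted p = 3.35e-07 by edgeR's quasi-likelihood test), and both batch 2 libraries lay above both batch 1 libraries. Ly6g6c went the other way in control cells, with a log2 difference of -2.24 (SE 0.69, adjusted p = 0.0209 by the same test). That call rested on single control libraries, since it was lost without replicate 1 (-1.22, adjusted p = 0.389) and without replicate 3 (-1.25, adjusted p = 0.261). For Lynx1 the batch difference in control was -2.05 (SE 0.79, edgeR adjusted p = 0.0677), and it passed the threshold without control replicate 1 (-2.51, adjusted p = 0.0361). Ly6e and Ly6g6c were thus the 2 of the 6 genes past the threshold, beside 19.3% of all genes tested. Lypd2 and Lypd3 had no control counts and gave no estimate.

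The same comparison within the Klf4 cells was added after the data had been seen. Slurp1 was higher in batch 2 by 0.37 on the log2 scale (SE 0.08, edgeR adjusted p = 0.00143), with 30.01 and 30.1 CPM in batch 2 against 24.4 and 22.0 in batch 1. Ly6e was higher in batch 2 by 0.16 (SE 0.04, edgeR adjusted p = 0.00568). These were 2 of the 6 genes, beside 15.6% of all genes tested, and neither passed without Klf4 replicate 2 (Slurp1 0.30, adjusted p = 0.0751, and Ly6e 0.13, adjusted p = 0.122). Ly6e also missed the threshold without Klf4 replicate 3, at 0.11 (adjusted p = 0.128). Lypd3 had 0.51 (SE 0.25, edgeR adjusted p = 0.177), and Lypd2, Lynx1 and Ly6g6c had 0.16, 0.10 and 0.04, with edgeR adjusted p-values of 0.507, 0.904 and 0.786. Klf4 itself was higher in batch 2 among the Klf4 libraries by 0.19 (SE 0.05, edgeR adjusted p = 0.00345), and its part in the Slurp1 difference was not tested.

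An interaction term asked whether the difference between the plasmids depended on the batch. None of the 6 genes passed an adjusted p of 0.05 in edgeR, beside 0.766% of all genes tested. Lypd2 and Lypd3 had 0 counts in every control library, so the term gave no usable estimate for them and they could not pass. Slurp1, with 2 control counts in all, had 3.58 (SE 1.99, edgeR adjusted p = 0.549). With DESeq2 none passed either, but Lynx1 was given no adjusted p there. At an unadjusted p under 0.05 in edgeR there were 3, namely Ly6e with -0.18 (SE 0.06, adjusted p = 0.187), Lynx1 with 2.15 (SE 0.87, adjusted p = 0.339) and Ly6g6c with 2.28 (SE 0.69, adjusted p = 0.143). For Ly6g6c the differences within batches were 7.32 and 9.60, both far above 0. The Ly6g6c interaction passed without control replicate 2 (2.86, edgeR adjusted p = 0.0174) and without control replicate 4 (6.70, edgeR adjusted p = 0.0487). The Ly6e interaction did not pass with any single library left out.

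**Figure D2:**
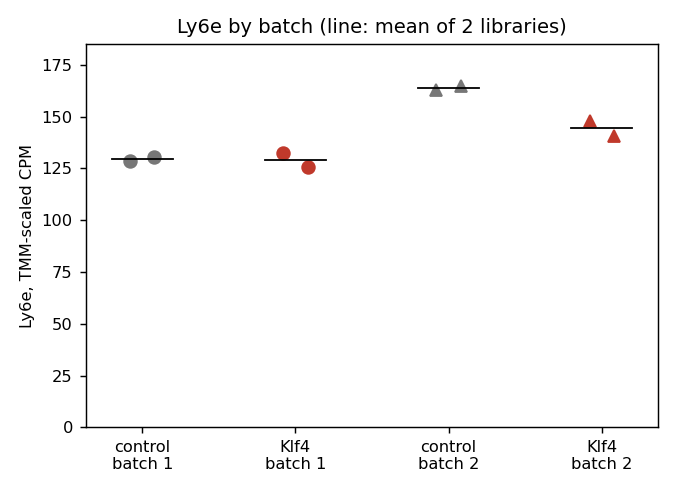
Ly6e level in each library by group and batch, as TMM-scaled CPM on a linear axis from 0; each point is 1 library and each line the mean of 2. The control libraries of batch 2, at 163 and 165 CPM, lie above the other 6, and in batch 1 the control and Klf4 libraries overlap.

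The rest of the Ly6/uPAR family was examined through a list of 59 symbols, of which 41 were in the table and 12 passed the filter. Of the 12, 6 had a mean of 10 or more control counts. Among these, Lypd1, Plaur and Pinlyp rose by edgeR's quasi-likelihood test, none fell, and Tex101, Pate2 and Ly6g5b did not pass, beside 21.1% higher and 15.5% lower over all genes tested. The other 6, Lypd5, Ly6h, Ly6g6e, Lypd6b, Lypd6 and Ly6g6d, were under that mean and passed the filter through the Klf4 libraries, where they were higher. Lypd6 and Ly6g6d lay close to the filter in control libraries, and genes further below it had to differ to be fitted at all. The values of these 6 genes are given as a description. With them, 9 of the 12 were past the threshold as higher and none as lower, and the median log2 difference was 1.95 against -0.01 over all genes, figures that the filter raises and from which nothing is read. Summed over the 41 genes, the level ranged from 5.27 to 8.51 CPM in control and from 19.9 to 31.2 CPM in Klf4 libraries.

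Plaur, the receptor for urokinase plasminogen activator, had the highest control level per length of those 9, at 0.391 ± 0.166 RPKM. Its control libraries held 72, 59, 27 and 39 counts and its Klf4 libraries 276, 203, 322 and 347, without overlap. Plaur rose by 2.47 on the log2 scale (SE 0.20, edgeR adjusted p = 6.17e-10), from 1.02 ± 0.434 to 5.63 ± 0.920 CPM (n = 4 each). The rise was larger in batch 2 (3.23) than in batch 1 (1.84), with an interaction of 1.38 (edgeR adjusted p = 0.0137). Lypd1, which binds nicotinic receptors and overlaps Gpr39 on the opposite strand, went from 19, 22, 3 and 8 counts to 93, 69, 91 and 155. The rise of Lypd1 was 2.89 (SE 0.34, edgeR adjusted p = 3.56e-07), again larger in batch 2, with an interaction of 2.39 (edgeR adjusted p = 0.0485). Since the strand setting of the counting was not given, the Lypd1 counts are uncertain, and the part of Gpr39 in them was not tested. Pinlyp, related to phospholipase inhibitors, rose by 1.44 (SE 0.31, edgeR adjusted p = 0.000756).

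Lypd5 and Ly6h were near absent in control and present in every Klf4 library, as Slurp1 was. Lypd5 had 1, 0, 0 and 0 control counts and 78, 56, 115 and 133 Klf4 counts, and its promoter stretch is the last of those printed above. The pooled Lypd5 ratio was 365, with a counting interval of 65.1 to 14460. It rests on 1 count of control replicate 1, and the fitted log2 difference of 7.92 became 9.65 without that library. Ly6h, a brain protein that limits nicotinic receptor function, had 1, 0, 6 and 11 control counts and 239, 208, 441 and 487 Klf4 counts. Its fitted log2 difference was 6.16 (SE 0.24), or 6.89 without control replicate 4. The Klf4 mean of Ly6h was 6.71 ± 2.45 CPM, with the 2 libraries of batch 2 above those of batch 1.

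Ly6g6e, Lypd6b, Lypd6 and Ly6g6d were higher in the Klf4 libraries without overlap between the groups. Ly6g6e, a neighbour of Ly6g6c that overlaps Ly6g6d on the opposite strand, had a log2 difference of 4.53 (SE 0.47), or 5.46 without control replicate 2. With the strand setting not given, the counts of Ly6g6e and Ly6g6d are uncertain. For Lypd6b, a modulator of nicotinic receptors, the log2 difference was 3.55 (SE 0.34). Lypd6, which is known to act in Wnt signalling, had 10, 8, 6 and 6 control counts and 16, 13, 31 and 14 Klf4 counts. The Lypd6 log2 difference was 1.21 (SE 0.41), or 0.82 without Klf4 replicate 3. Ly6g6d, which the naming rule left out and which is given here for completeness, had 9, 10, 11 and 7 control counts and 17, 18, 26 and 19 Klf4 counts.

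**Figure D3:**
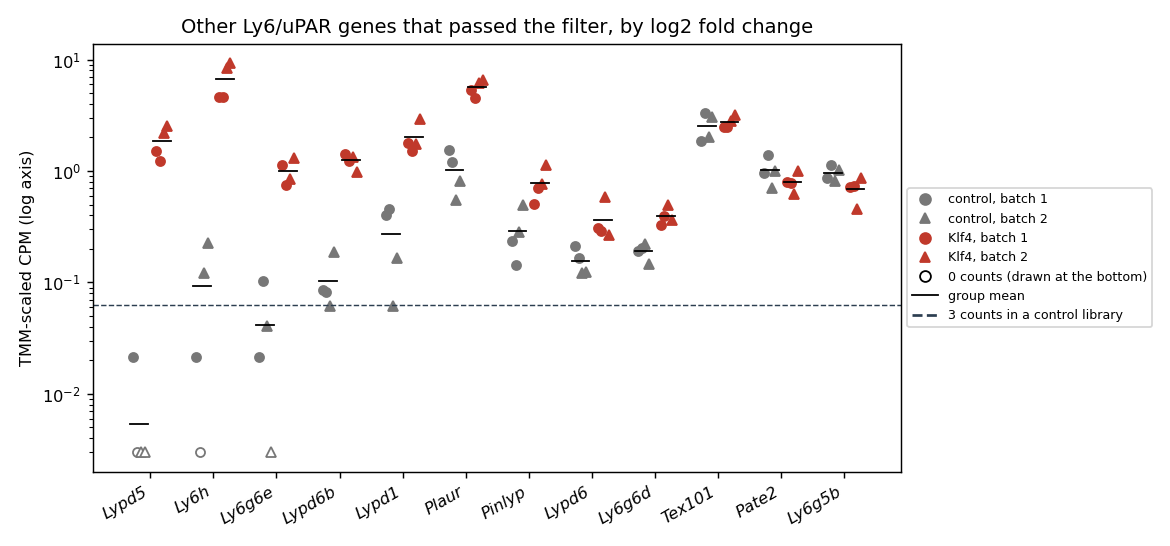
Level of the 12 other Ly6/uPAR genes that passed the filter, as TMM-scaled CPM on a log axis, in order of log2 difference; symbols, lines and the dashed line are as in the plot of the 9 genes. The control and Klf4 libraries are apart from Lypd5 to Ly6g6d and overlap in Tex101, Pate2 and Ly6g5b.

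Along chromosome 15 the large differences were uneven from gene to gene. Within the cluster, the start of Psca lies at -13.2 kb from that of Slurp1, Them6 lies between them, and Lypd2, Slurp2, Lynx1 and Ly6d follow Slurp1 at 6.30, 18.7, 25.0 and 35.6 kb. Slurp2, the other secreted Slurp of this stretch, was at 0 counts in all control libraries and had 7, 5, 6 and 5 in Klf4 libraries, under the filter. From 300 kb before the first to 300 kb after the last of the 7 genes on this chromosome, 25 genes of no Ly6/uPAR list were annotated, 14 without a count in any library. Of the 25, 5 passed the filter, with a median log2 difference of -0.00. Of these, Arc rose and Jrk, 4933427E11Rik and Them6 did not pass edgeR's quasi-likelihood test, beside 21.1% higher over all genes tested. Adgrb1 was also past the threshold as higher, but it had passed the filter through the Klf4 libraries and is described without a test.

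Adgrb1, an adhesion receptor for apoptotic cells also called Bai1, has its start at -211.8 kb from that of Slurp1. It had 5, 6, 1 and 5 control counts and 1450, 1082, 1530 and 1920 Klf4 counts, with a fitted log2 difference of 8.34 (SE 0.17). In CPM, Adgrb1 went from 0.0883 ± 0.0462 to 29.4 ± 5.203 (n = 4 each). Per length its Klf4 level was 4.07 ± 0.720 RPKM against 9.08 RPKM for Slurp1 on summed exon length, but 47.8 against 47.0 RPKM on the shortest transcript of each, so the order depends on the length used. Arc, an immediate-early gene of neurons, rose by 1.14 (SE 0.06, edgeR adjusted p = 4.35e-13), from 32.6 ± 3.77 to 71.7 ± 4.23 CPM. Genes with differences as large as those of Slurp1 and Adgrb1 thus stood beside genes such as Them6, with a log2 difference of -0.00 (edgeR adjusted p = 0.997).

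**Figure D4:**
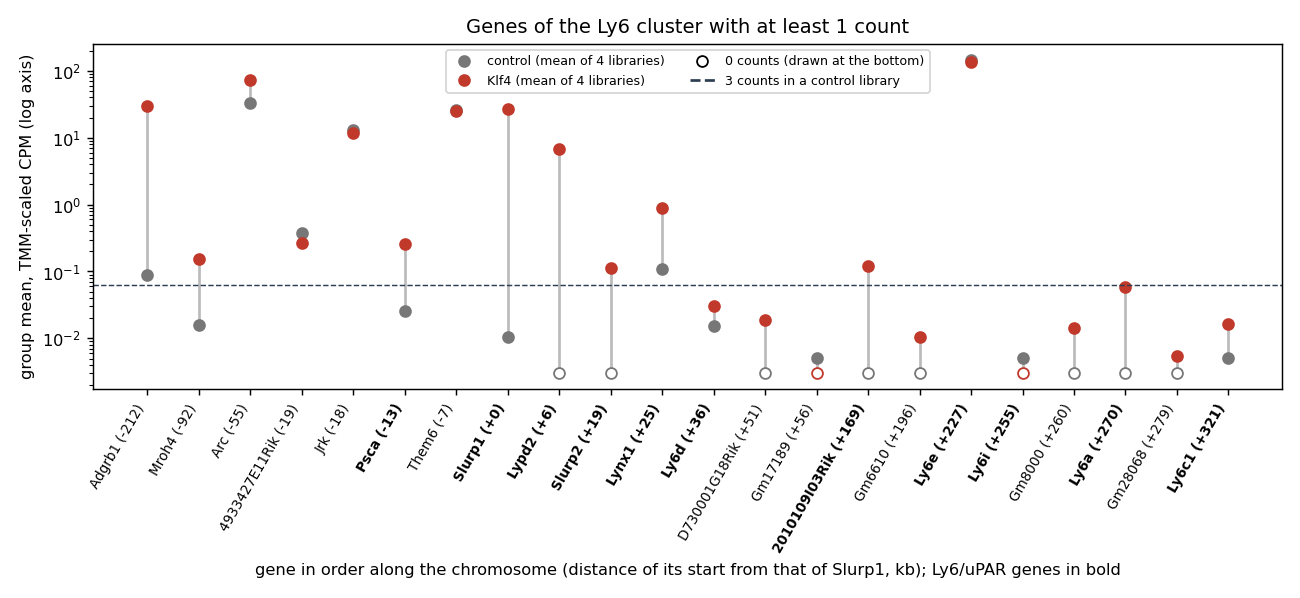
Mean level of the genes of the Slurp1 cluster that had any count, in chromosome order, as TMM-scaled CPM on a log axis; grey points are means of 4 control and red points of 4 Klf4 libraries, open points means of 0, and names in bold belong to the Ly6/uPAR family. Adgrb1, Slurp1 and Lypd2 have the longest lines, while Them6 and Ly6e have both means nearly on one another.

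The nicotinic acetylcholine receptor subunits, to which Slurp1, Lynx1 and Lypd6b are known to bind, were followed as a group of 16 genes. Of the 16, 10 passed the filter, and 7 of these had a mean of 10 or more control counts. In edgeR's quasi-likelihood test 1 of the 7 rose, Chrna4, and 2 fell, Chrna7 and Chrnb4, beside 21.1% higher and 15.5% lower over all genes tested. Chrnd and Chrng were also past the threshold as higher, but had passed the filter through the Klf4 libraries and are described without a test. Chrnd, the delta subunit of the muscle receptor, had 0 counts in all control libraries and 210, 195, 305 and 324 in Klf4 libraries, at least 81.8-fold higher. Chrng, the gamma subunit of the embryonic muscle receptor, had 5, 7, 5 and 1 control counts and 16, 17, 34 and 23 Klf4 counts. Chrna4, a subunit of neuronal receptors, rose by 0.43 (SE 0.05, edgeR adjusted p = 5.06e-07), from 26.4 ± 3.00 to 35.3 ± 2.52 CPM. The log2 differences of Chrna7 and Chrnb4, named here after their values were seen, were -0.21 (edgeR adjusted p = 0.0427) and -0.12 (edgeR adjusted p = 0.00989). Both calls were lost without the batch term, and also with scaling factors from genes of average log2 CPM 6 or more. Chrna7 encodes the subunit through which Slurp1 is best known to act.

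The enzymes that make and remodel GPI anchors differed little between the groups. All 29 of these genes in the table passed the filter, each with a mean of 10 or more control counts. In edgeR's quasi-likelihood test 2 rose, 3 fell and 24 did not pass, beside 36.6% past the threshold over all genes tested, and the median log2 difference was -0.04. The largest of the changes was that of Pgap3, which remodels the lipid of the anchor and rose by 0.30 (SE 0.06, edgeR adjusted p = 0.00018). Pgap1, which removes a fatty acid from the anchor, fell, with a difference of -0.13 (SE 0.04, edgeR adjusted p = 0.00632), as did Pigl, an early enzyme of the pathway, with -0.18 (SE 0.07, edgeR adjusted p = 0.0394). Pigl kept its call in 6 of 16 alternatives and Pgap1 lost its call without the batch term (adjusted p = 0.0775).

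Ly6e and Ly6a are both known as interferon-induced, and 32 interferon-response genes were followed beside them. Of these, 29 passed the filter, and 27 had a mean of 10 or more control counts. In edgeR's quasi-likelihood test 9 of the 27 rose and 2 fell, beside 21.1% higher and 15.5% lower over all genes tested. Zbp1 and Oas3 were also past the threshold as higher, but had passed the filter through the Klf4 libraries and are described without a test. Zbp1, a sensor of unusual nucleic acids, had 1, 2, 3 and 0 control and 17, 11, 23 and 24 Klf4 counts. Oas3 and Oas2 are enzymes of the antiviral 2-5A pathway. Oas3 went from 9, 3, 3 and 10 to 41, 37, 89 and 88 counts, and Oas2, with more control counts, rose by 1.24 (SE 0.14, edgeR adjusted p = 2.48e-07). The level of Ly6e was not higher in the Klf4 libraries, and Ly6a stayed at 6 counts or fewer.

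Among the genes whose profile over the 8 libraries was nearest to that of Slurp1 were Krt14, Adgrb1, Krt16 and Dsg1b, by Euclidean distance of log2(CPM + 0.5) over 18260 genes. The distances were 0.557, 0.576, 0.630 and 1.13. Krt14 and Krt16 are keratins and Dsg1b is a desmosomal cadherin, all of stratified epithelium, and Adgrb1 is the cluster neighbour described above. Their mean Klf4 levels were 23.1, 29.4, 22.0 and 18.01 CPM, around the 26.6 CPM of Slurp1, on a scale that takes no account of length. The 4 genes had 0 to 6 counts in each control library. Since the genes were picked by their distance over these same libraries, levels near those of Slurp1 in both groups follow from the choice, and nothing is read from them.

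**Figure D5:**
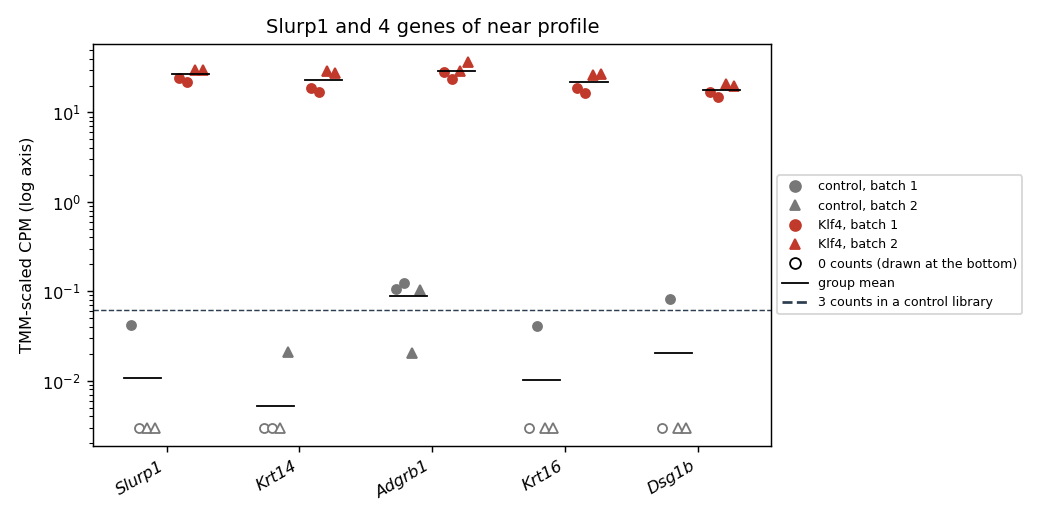
Level of Slurp1 and of 4 genes with a near profile in each library, as TMM-scaled CPM on a log axis; symbols, lines and the dashed line are as in the plot of the 9 genes. All 5 genes lie between 14.9 and 36.4 CPM in the Klf4 libraries and at 0.123 CPM or less in the control libraries.

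Markers of stratified epithelium, a tissue in which several of the 9 genes are known, had a higher summed level in the Klf4 libraries. Of 15 such markers, 9 passed the filter, and 4 of these had a mean of 10 or more control counts. Of the 4, 3 were higher by edgeR's quasi-likelihood test, beside 21.1% of all genes tested. The rest of the 9 passed the filter through the Klf4 libraries. With them, 8 of the 9 were past the threshold as higher, a figure that the filter raises and from which nothing is read. The summed level of the 15 ranged from 8.65 to 12.4 CPM in control and from 103 to 139 CPM in Klf4 libraries. Without Sbsn and Krt10, left out after the values were seen, it was 1.31 to 3.79 CPM in control and 34.8 to 54.1 CPM in Klf4 libraries. Among the 15, Trp63, Ivl and Sprr1b had 0 counts in every library, and Krt5 counts ranged from 2 to 7 in control and from 9 to 13 in Klf4 libraries. The part of this cell type in the Slurp1, Lypd3 and Ly6g6c values was not tested. Fibroblast markers were also higher in sum, at 4.41 to 5.65 CPM in control and 24.1 to 30.8 CPM in Klf4 libraries. Of the 8, 3 had a mean of 10 or more control counts, and 2 of these were higher, beside 21.1% of all genes tested. Endothelial markers summed to 4.14 to 4.48 CPM in control and 6.03 to 6.69 CPM in Klf4 libraries. Of the 8, 2 had a mean of 10 or more control counts, and 0 of these were higher. In all, 4 fibroblast and 2 endothelial markers were past the threshold as higher. Those under that control mean passed the filter through the Klf4 libraries, and nothing is read from them. Haematopoietic markers, which bear on Ly6a and Ly6d, summed to 9.57 to 10.4 CPM in control and 10.4 to 12.7 CPM in Klf4 libraries. Of the 10, 4 passed the filter, each with a mean of 10 or more control counts. Of these 4, 1 was higher, Cd79a, beside 21.1% of all genes tested.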

How the data were processed

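Libraries of polyadenylated RNA from 8 samples came from a Tecan Universal Plus mRNA-seq preparation, per the labels' protocols. The values were whole-number read counts per gene, which the authors deposited unnormalised with 1 column per library. Per the submitters' processing notes, FastQC, STAR, featureCounts, edgeR and the build mm10 were used, and cutadapt is in the name given to the deposited counts. All 55536 gene identifiers and symbols matched GENCODE M21 (GRCm38), the source of coordinates and lengths. The 9 genes, the lists and the tests were chosen with earlier results of these data known.

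Counts were fitted in edgeR 4.0.16 (limma 3.58.1, R 4.3.3) after filterByExpr with a minimum count of 10 and TMM scaling, with terms for batch and plasmid, as the series' design text names edgeR with batch correction. All 8 libraries entered each fit, except where a library was left out and for the plasmid differences within a batch. The differences within a batch came from a separate fit for each batch, with the libraries of that batch only. A quasi-likelihood test with Benjamini-Hochberg adjustment over the 18266 genes and a threshold of 0.05 was used, and 37270 genes were left out. Batch effects within groups and their difference came from a model with the product of batch and plasmid. The script was tested on simulated data. DESeq2 1.42.0, limma-voom and the other alternatives are given in the closing section. Ratios of pooled counts have exact binomial intervals (Clopper-Pearson, 95%), and a floor of 3 counts per library stood for 0, both for counting error only. CPM values are scaled by TMM, and RPKM values use summed exon length.

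The text names Klf4, the 9 genes, the called genes of each list by size of change (at most 8 of the family, 5 neighbours and 3 of each other list) and the 5 genes nearest to Slurp1, of which 1 is not reported here. Exceptions are named where they occur. Same-numbered libraries of the 2 groups deviated together, with correlations of 0.613, 0.459, 0.568 and 0.517 over 10482 genes. Differently numbered libraries that shared a batch had correlations of 0.459 to 0.574, so the values do not show a pairing by replicate number beyond the batch. With batch means removed the correlations of same-numbered libraries were -0.0445 in batch 1 and 0.0787 in batch 2. A block by replicate number was fitted as an alternative only. Replicates differed beyond sampling noise, since chi-square over its degrees of freedom ran from 4.23 to 5.71 for pairs within a batch and from 17.4 to 23.3 for pairs across batches. The 4 replicates per group are called biological in the design text. Their source cultures are not given in the sources used here, and p-values measure the spread between these samples.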

Additional observations from a re-analysis of the deposited data

Results flagged for a closer look

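In 66 groups of 4 libraries checked for a library far from the other 3, 10 such libraries were found, where chance gives about 3.3. In 6 of the 10 the other 3 libraries held 0 counts, so that any count stood apart, and the number found is not set against chance. Among the 9 genes, Slurp1 stood out in control replicate 1 with 0.0425 CPM (2 counts, the other control libraries at 0). Ly6d stood out in control replicate 4 with 0.0621 CPM (3 counts) and in Klf4 replicate 3 with 0.0 CPM (0 counts against 2 in each other Klf4 library). In the other family genes, Lypd5 in control replicate 1 had 0.0212 CPM (1 count), and Lypd6 in Klf4 replicate 3 had 0.589 CPM (31 counts). Of the GPI enzymes, Pigl in control replicate 2 had 10.3 CPM (503 counts) and Pgap1 in Klf4 replicate 4 had 112 CPM (5893 counts). Of the genes nearest to Slurp1, Krt14 in control replicate 4 had 0.0207 CPM (1 count), Krt16 in control replicate 2 had 0.0411 CPM (2 counts) and Dsg1b in control replicate 2 had 0.0822 CPM (4 counts).

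The difference between Klf4 and control cells was larger in batch 2 than in batch 1 for Klf4 by 0.37, for Lypd1 by 2.39 and for Plaur by 1.38 on the log2 scale, each past an adjusted p of 0.05 for edgeR's interaction term. In Lypd1 and Plaur the control level was lower in batch 2.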

How the results depend on the processing

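Of 613 values of named genes under alternatives, 582 kept their direction and their side of the threshold, 27 lost the call, 4 gained one and 0 reversed. Most of these genes were named for a large difference in this same contrast, which favours a kept call, so nothing is read from the total. Lynx1 batch values for which DESeq2 gave no adjusted p were counted as kept. Ly6e lost its call in 7 of 16 alternatives, with log2 differences of -0.10 to -0.06 in those 7. With a replicate block in place of the batch term, 6284 genes were past the threshold against 6684, and the block took 1 of the 9 genes, Ly6e, out of the calls (edgeR adjusted p = 0.0614). The 9 genes had 6 calls as reported, 4 with a filter of CPM 1 in 4 libraries and 7 without a filter. Without the batch term, calls fell to 4116 genes, 3 nicotinic subunits (5 as reported), 1 GPI enzyme (5) and 8 interferon-response genes (13). Of all calls, 57.7% were higher as reported (3856 higher, 2828 lower), 71.8% without the batch term and 72.8% with factors from genes of average log2 CPM 6 or more (4387 higher, 1638 lower). Those factors left 3 nicotinic calls, as did the CPM filter, which left 4 family calls (9 as reported). DESeq2 left 3 GPI calls. Leaving out 1 library at a time gave 2 to 5 GPI calls, with 2 without control replicate 3, 2 without Klf4 replicate 4 and 3 without Klf4 replicate 2. Across the same left-out libraries, 0 to 1 of the 9 genes passed for the batch interaction (Ly6g6c), 1 to 2 for batch in control and 0 to 2 for batch in Klf4. The interaction also gave 1 without a filter. The causes were not tested. Ly6d, Ly6a and Psca are limited by depth, at under 20 counts per library.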
